A study of Mus musculus with 25 samples.

Results

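Levels of 7 noncoding transcripts were described across 25 microarrays of lumbar dorsal root ganglia, the clusters of sensory nerve cell bodies that serve the hind limb. The transcripts were Bc1, Rn4.5s, n-R5s204, AY036118, DQ267102, Lncpint and Phxr4. They were selected on the differences these same arrays showed between times and treatments, so such differences are given below as descriptions without p-values. Their standard errors (SE) are drawn in the plots of differences by time and by treatment, and the text prints some of them. Statements of which of the 7 passed a threshold on adjusted p-values, with all arrays or with 1 left out, are descriptions too and not tests. Each transcript was read from the brightest probe set that carried its symbol, and the 7 are among 30142 genes with 1 symbol, of which 20260 passed a limit on mean brightness. All 7 passed that limit.

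All mice were male C57BL/6. In the DMM groups the medial meniscus of the right knee was destabilized at 10 weeks of age, a surgical model of knee osteoarthritis. Sham groups had a control operation on the same knee at that age, and naive groups had none. Ganglia L3 to L5 were collected 4, 8 or 16 weeks later, when the mice, naive ones included, were 14, 18 or 26 weeks old. In naive mice the weeks below therefore count from 10 weeks of age and stand for age without surgery. Any batch of collection or arrays that follows the weeks cannot be told apart from age. There were 3 arrays in each group except for sham at 8 weeks, which kept a single array after the submitters' quality control. The labels do not state the side of the ganglia, how many animals an array holds, or that arrays came from separate animals. Any p-value therefore measures the spread between these arrays, which may be technical.

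Most of a cell's RNA is noncoding. RNA polymerase III makes short transcripts such as 5S ribosomal RNA, transfer RNAs and, in rodents, Bc1 and 4.5S RNA, while small nucleolar RNAs (snoRNAs) guide chemical changes on other RNAs and are mostly cut from introns of longer host transcripts. Most long noncoding RNAs are transcripts of RNA polymerase II, and some act in the nucleus on gene expression. In neurons Bc1 is carried into dendrites, where it represses translation.

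RefSeq start-site windows on build GRCm38.p6 were found for 4 of the 7 transcripts, Bc1, Lncpint, Phxr4 and AY036118. The build behind the array's own annotation is not given in the sources used here. Each window spans 250 bases before the annotated start and 50 from it. Those of 3 are shown, Bc1 because its transcript carries its own promoter, and Lncpint and Phxr4 because their levels moved together on these arrays. Bc1 lies at chr7:144914220-144914519 on the plus strand, with the first 50 transcribed bases in capitals. Lncpint lies at chr6:31218425-31218724 on the minus strand, with a CACGTG sequence, the E-box letters, in capitals. Phxr4 lies at chr9:13431111-13431410 on the plus strand, with runs of at least 3 TG repeats in capitals.
Bc1: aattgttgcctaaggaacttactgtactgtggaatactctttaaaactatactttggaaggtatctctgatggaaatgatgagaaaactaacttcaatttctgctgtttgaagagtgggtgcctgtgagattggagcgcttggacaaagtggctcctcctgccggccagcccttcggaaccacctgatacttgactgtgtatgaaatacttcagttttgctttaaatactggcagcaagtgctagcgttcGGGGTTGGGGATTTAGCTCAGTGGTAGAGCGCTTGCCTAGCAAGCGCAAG
Lncpint: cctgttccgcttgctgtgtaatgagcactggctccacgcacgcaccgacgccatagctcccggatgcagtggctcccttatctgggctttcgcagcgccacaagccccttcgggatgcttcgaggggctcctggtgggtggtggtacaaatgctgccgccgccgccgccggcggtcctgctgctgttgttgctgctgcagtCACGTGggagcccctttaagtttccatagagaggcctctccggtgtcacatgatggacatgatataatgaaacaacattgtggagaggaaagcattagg
Phxr4: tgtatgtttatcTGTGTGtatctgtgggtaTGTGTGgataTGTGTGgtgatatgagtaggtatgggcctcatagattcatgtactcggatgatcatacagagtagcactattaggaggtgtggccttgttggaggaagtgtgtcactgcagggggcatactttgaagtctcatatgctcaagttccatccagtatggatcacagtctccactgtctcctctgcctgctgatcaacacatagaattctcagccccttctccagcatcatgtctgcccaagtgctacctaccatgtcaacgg
The capitals of Bc1 hold 11 letters of box A, the first internal promoter element of transfer RNA genes, from which Bc1 derives, beginning at base 14 of the transcript. Searched on both strands, that motif occurred in 1.24% of 32817 RefSeq windows of this kind. In Lncpint the CACGTG, which reads alike on both strands, begins at position -49 from the start, and 7.15% of the windows hold those letters. The windows of Bc1, Lncpint, Phxr4 and AY036118 hold 45.7%, 58.7%, 47.0% and 32.7% G and C, and 2.04% of all windows hold less than that of AY036118. These matches describe the letters of the windows alone.

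The deposited values are log2 intensities, and levels below are on that scale, read within a probe set and not between probe sets. Arrays of a group correlated at 0.993 to 0.998 over the genes kept. Sensory neuron markers were bright on every array: the mean over 16 of them ran from 13.62 to 13.82, and Snap25 and Prph were among them, whereas 4 skeletal muscle markers averaged 5.18 to 6.01, near the negative control probe sets (array medians 5.06 to 5.35). Macrophage markers (10 genes) averaged 7.52 to 7.63 in DMM mice, 7.05 to 7.36 in sham mice and 7.62 to 7.98 in naive mice at 4 weeks, and 7.49 to 7.77 in DMM mice, 7.26 to 7.50 in sham mice and 7.02 to 7.19 in naive mice at 16 weeks. In these bulk samples, fewer cells of a type and less RNA per cell cannot be told apart. The part of cell makeup in the results below was not tested.

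**Figure D1:**
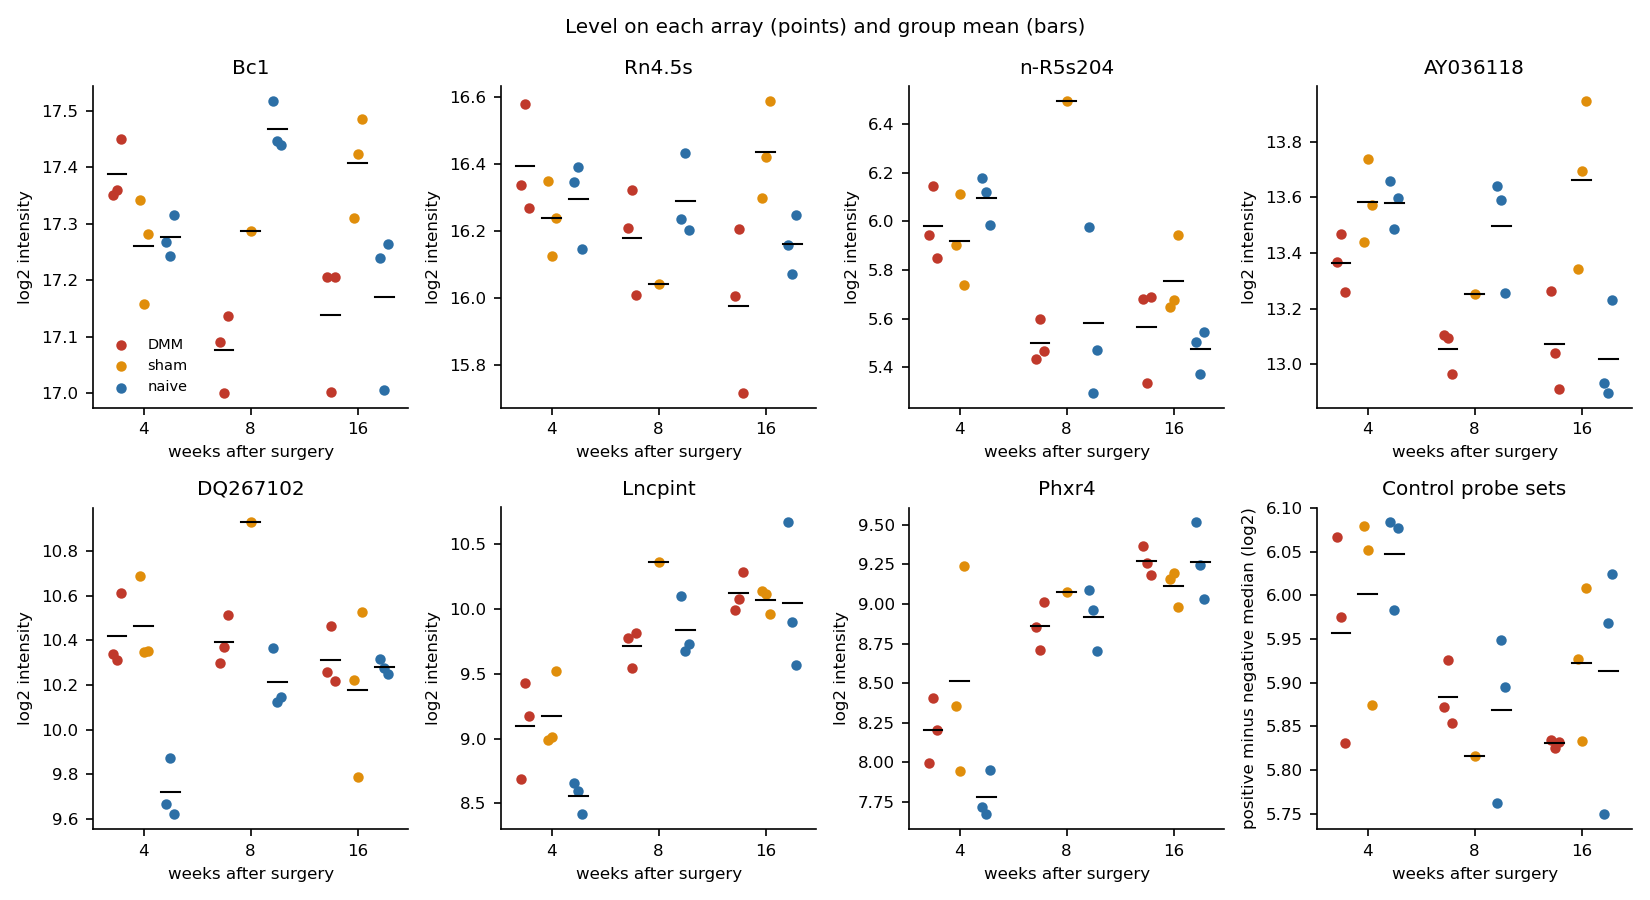
Level (log2 intensity) of each transcript on each array, by weeks after surgery, with DMM, sham and naive arrays as points from left to right and group means as bars. The last panel gives the positive minus negative control median of each array. Lncpint and Phxr4 have their lowest group means in naive mice at 4 weeks (arrays of 8.41 to 8.66 and 7.67 to 7.95), and Bc1 spans only 0.52 over all arrays.

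Bc1, the neuronal translational repressor made by RNA polymerase III, varied least of the 7 in signal. Its mean of 17.27 was above that of 99.5% of all probe sets, and whether signal this bright is compressed was not tested. In DMM mice Bc1 read 17.35, 17.36 and 17.45 at 4 weeks, then 17.09, 17.00 and 17.14 at 8 weeks, followed by 17.21, 17.00 and 17.21 at 16 weeks. Sham mice gave Bc1 levels of 17.34, 17.16 and 17.28 at 4 weeks, 17.29 on the single array at 8 weeks, and 17.31, 17.42 and 17.49 at 16 weeks. Naive mice gave 17.27, 17.24 and 17.32 at 4 weeks, then 17.52, 17.45 and 17.44 at 8 weeks, followed by 17.24, 17.00 and 17.26 at 16 weeks. The DMM arrays thus lay above the naive and sham arrays at 4 weeks, below the naive arrays at 8 weeks, below the sham arrays at 16 weeks, and among the naive arrays at 16 weeks. DMM minus naive was 0.11 ± 0.08 (difference ± SE, 3 arrays a group) at 4 weeks, -0.39 ± 0.08 at 8 weeks (a ratio of 0.762) and -0.03 ± 0.08 at 16 weeks. DMM minus sham was 0.13 ± 0.08 at 4 weeks and -0.27 ± 0.08 at 16 weeks, and sham minus naive was 0.24 ± 0.08 at 16 weeks with no overlap. After cyclic loess normalization the 16-week values were -0.17 for DMM minus sham and 0.08 for sham minus naive. Between 16 and 4 weeks the difference was -0.25 in DMM mice, 0.15 in sham mice and -0.11 in naive mice. The naive value was 0.04 after cyclic loess normalization. On the brightest Bc1 probe set only the DMM arrays of these times did not overlap. The order of the group means ran from naive at 8 weeks (17.47) and sham at 16 weeks (17.41) at the top to DMM at 16 weeks (17.14) and DMM at 8 weeks (17.08) at the bottom, each pair overlapping on its arrays.

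The Bc1 symbol stood on 3 probe sets, which the platform places on chromosomes 7, 10 and X. RefSeq has Bc1 on chromosome 7, and the identifier elements of rodent genomes descend from it. Whether the probe sets of chromosomes 10 and X read Bc1 itself or related sequences was not tested. At 8 weeks DMM minus naive was -0.39, -0.285 and -0.36 on the probe sets of chromosomes 7, 10 and X, and the groups did not overlap on any of them. At 16 weeks DMM minus sham was -0.27, -0.12 and -0.12, with no overlap on the probe sets of chromosomes 7 and 10 and overlap on that of X. The difference at 4 weeks was less alike: DMM minus naive was 0.11, 0.04 and 0.01, and only the probe set of chromosome 7 kept the arrays apart. The time differences varied too. On the probe sets of chromosomes 10 and X, 16 minus 4 weeks was -0.11 and -0.01 in DMM mice. It was 0.05 and 0.18 in sham mice, and -0.15 and -0.03 in naive mice. On that of chromosome 10 the DMM arrays and the naive arrays of these times did not overlap. On that of X only the sham arrays did not. Myelinating Schwann cell markers also stood apart at 8 weeks, with all 7 tested lower in DMM (0 past limma's threshold, 4 with an unadjusted p under 0.05, median -0.36) and array means of 10.04 to 10.69 in DMM and 10.73 to 10.85 in naive mice. Their part in the Bc1 difference was not tested.

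Rn4.5s, annotated by RefSeq as a ribosomal RNA and named for the small 4.5S RNA of rodents, showed wider overlap. In DMM mice its levels were 16.34, 16.58 and 16.27 at 4 weeks, then 16.21, 16.32 and 16.01 at 8 weeks, followed by 16.01, 16.21 and 15.72 at 16 weeks. In sham mice they were 16.35, 16.13 and 16.24 at 4 weeks, 16.04 on the lone 8-week array, and 16.30, 16.42 and 16.59 at 16 weeks. In naive mice they were 16.35, 16.39 and 16.15 at 4 weeks, then 16.24, 16.43 and 16.20 at 8 weeks, followed by 16.16, 16.07 and 16.25 at 16 weeks. The 3 DMM arrays at 16 weeks were all below the 3 sham arrays of that time and below the 3 DMM arrays at 4 weeks, and overlapped the naive arrays. At 16 weeks DMM minus sham was -0.46 ± 0.12, DMM minus naive -0.18 ± 0.12 and sham minus naive 0.28 ± 0.12, the last with no overlap. Within treatments, 16 minus 4 weeks gave -0.42 in DMM mice, 0.20 in sham mice and -0.13 in naive mice. No comparison of Rn4.5s at 4 or 8 weeks separated the arrays of its groups.

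n-R5s204, which RefSeq lists as a pseudogene of 5S ribosomal RNA on chromosome 2 inside the protein-coding gene Nusap1, was dim. In DMM mice it read 5.95, 6.15 and 5.85 at 4 weeks, then 5.43, 5.60 and 5.47 at 8 weeks, followed by 5.68, 5.33 and 5.69 at 16 weeks. In sham mice it read 5.90, 6.11 and 5.74 at 4 weeks, 6.50 on the lone 8-week array, and 5.65, 5.68 and 5.94 at 16 weeks. In naive mice it read 6.18, 6.12 and 5.99 at 4 weeks, then 5.97, 5.29 and 5.47 at 8 weeks, followed by 5.50, 5.37 and 5.55 at 16 weeks. The single sham array at 8 weeks was the highest of all 25, and the lowest readings lay at the level of the negative control medians. The 16-week arrays lay below all 4-week arrays in DMM mice (difference -0.41 ± 0.14) and in naive mice (-0.62 ± 0.14), and overlapped them in sham mice (-0.16 ± 0.14). Sham minus naive at 16 weeks was 0.28 ± 0.14 with no overlap. DMM minus naive was -0.12 at 4 weeks, -0.08 at 8 weeks and 0.09 at 16 weeks, all with overlap, and the 8-week value was 0.12 without replicate 1 of the naive mice. Its host gene Nusap1 differed by -0.01 between 16 and 4 weeks in naive mice.

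AY036118, a long noncoding RNA by RefSeq annotation whose span on chromosome 17 overlaps the ribosomal RNA pseudogene Rn18s-rs5, was lower with time in naive mice and higher in the sham mice than in both other groups at 16 weeks. In DMM mice it read 13.37, 13.47 and 13.26 at 4 weeks, then 13.11, 13.09 and 12.96 at 8 weeks, followed by 13.26, 13.04 and 12.91 at 16 weeks. In sham mice it read 13.44, 13.74 and 13.57 at 4 weeks, 13.25 on the lone 8-week array, and 13.34, 13.69 and 13.95 at 16 weeks. In naive mice it read 13.66, 13.49 and 13.60 at 4 weeks, then 13.64, 13.59 and 13.26 at 8 weeks, followed by 12.93, 12.90 and 13.23 at 16 weeks. The naive arrays at 16 weeks were all below those at 4 weeks (-0.56 ± 0.14, a ratio of 0.678), while the 16-week and 4-week arrays overlapped in DMM (-0.29) and sham mice (0.08). DMM arrays lay below naive ones at 4 weeks (-0.22 ± 0.14) and at 8 weeks (-0.44 ± 0.14, a ratio of 0.737) and overlapped them at 16 weeks (0.05). At 16 weeks DMM minus sham was -0.59 ± 0.14 and sham minus naive 0.64 ± 0.14, and neither pair of groups overlapped. By group mean, sham at 16 weeks was highest (13.66 ± 0.30, SD) and naive at 16 weeks lowest (13.02 ± 0.18), with DMM at 8 weeks (13.06 ± 0.08) and at 16 weeks (13.07 ± 0.18) within the spread of that lowest group.

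DQ267102 is a snoRNA gene on chromosome 12 that lies inside Rian, an imprinted long noncoding RNA that hosts many snoRNAs of the C/D box class. In DMM mice it read 10.34, 10.31 and 10.61 at 4 weeks, then 10.30, 10.37 and 10.51 at 8 weeks, followed by 10.26, 10.47 and 10.22 at 16 weeks. In sham mice it read 10.69, 10.35 and 10.35 at 4 weeks, 10.93 on the lone 8-week array, and 10.22, 9.79 and 10.53 at 16 weeks. In naive mice it read 9.67, 9.87 and 9.62 at 4 weeks, then 10.36, 10.12 and 10.15 at 8 weeks, followed by 10.32, 10.28 and 10.25 at 16 weeks. The 3 naive arrays at 4 weeks stood below all others but 1, replicate 2 of the sham mice at 16 weeks. All DQ267102 differences against those 3 naive arrays were of similar size: 0.70 ± 0.14 for DMM and 0.74 ± 0.14 for sham at 4 weeks, and 0.56 ± 0.14 for naive at 16 weeks. These comparisons share the same 3 arrays and are not independent of each other. Macrophage markers differed in the same comparisons: all 10 were lower in sham than in naive mice at 4 weeks, 3 past the threshold (Cd68 -0.74, Mrc1 -0.71, Csf1r -0.56), and all 10 were lower in naive mice at 16 than at 4 weeks, 7 past the threshold. In DMM minus naive at 4 weeks 9 of the 10 were lower, 0 past limma's threshold and 2 with an unadjusted p under 0.05 (median -0.14). Their part was not tested. Elsewhere the differences were small: 0.18 for DMM minus naive at 8 weeks, 0.03 at 16 weeks, -0.04 for DMM minus sham at 4 weeks and 0.13 at 16 weeks, each with overlap. Leaving out replicate 2 of the sham mice at 16 weeks turned DMM minus sham at that time to -0.06 (0.13 with it), sham minus naive to 0.09 (-0.10 with it), and sham 16 minus 4 weeks to -0.09 (-0.28 with it). Of the 4 tested snoRNA genes next to DQ267102, Gm24564 differed by 1.76 between 16 and 4 weeks in naive mice, AF357426 by 0.27, AF357428 by -0.27 and Gm23736 by 0.19.

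Lncpint, known as a target of the tumour suppressor p53 that binds the repressive Polycomb complex in mouse cells, spanned 2.26 over the 25 arrays, a range that 0.701% of the genes exceeded. In DMM mice it read 8.69, 9.43 and 9.18 at 4 weeks, then 9.78, 9.55 and 9.82 at 8 weeks, followed by 10.00, 10.08 and 10.29 at 16 weeks. In sham mice it read 8.99, 9.01 and 9.52 at 4 weeks, 10.36 on the lone 8-week array, and 10.14, 10.11 and 9.96 at 16 weeks. In naive mice it read 8.66, 8.59 and 8.41 at 4 weeks, then 10.10, 9.68 and 9.73 at 8 weeks, followed by 10.67, 9.90 and 9.57 at 16 weeks. In all 3 treatments every 16-week array was above every 4-week array, and every 8-week array was above the 4-week arrays as well. The difference of 16 minus 4 weeks was 1.02 ± 0.22 in DMM mice, 0.90 ± 0.22 in sham mice and 1.49 ± 0.22 in naive mice, ratios of 2.03, 1.86 and 2.81. Without replicate 1 of the naive mice at 16 weeks the naive difference was 1.18. At 4 weeks DMM minus naive was 0.54 ± 0.22 and sham minus naive 0.62 ± 0.22 with no overlap, and DMM minus sham was -0.08 with overlap. At 8 and 16 weeks the DMM and naive arrays overlapped, with DMM minus naive at -0.12 and 0.07, and the 16-week value was 0.39 without that same naive array.

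Phxr4, named for a repeat of hexamers and placed by RefSeq inside Maml2, had a pattern like that of Lncpint. In DMM mice it read 7.99, 8.41 and 8.21 at 4 weeks, then 8.85, 8.71 and 9.01 at 8 weeks, followed by 9.36, 9.26 and 9.19 at 16 weeks. In sham mice it read 8.36, 7.95 and 9.24 at 4 weeks, 9.08 on the lone 8-week array, and 9.16, 9.20 and 8.98 at 16 weeks. In naive mice it read 7.72, 7.67 and 7.95 at 4 weeks, then 9.09, 8.96 and 8.70 at 8 weeks, followed by 9.52, 9.25 and 9.03 at 16 weeks. Every 16-week array was above every 4-week array in DMM and naive mice, and sham mice differed through replicate 3 at 4 weeks, which lay with the later arrays. For 16 minus 4 weeks the difference was 1.07 ± 0.21 in DMM mice, 0.60 ± 0.21 in sham mice and 1.49 ± 0.21 in naive mice, and the sham value was 0.96 without that replicate 3 and 0.32 without replicate 2. At 4 weeks DMM minus naive was 0.42 ± 0.21 with no overlap and sham minus naive 0.73 ± 0.21 with overlap, the sham value being 0.37 without replicate 3 and 1.02 without replicate 2. DMM minus sham at 4 weeks was -0.31 ± 0.21, and was 0.05 without replicate 3 and -0.60 without replicate 2 of the sham mice. DMM minus naive at 8 weeks was -0.06 and DMM minus sham at 16 weeks 0.16, both with overlap. Its host gene Maml2, a Notch coactivator, differed by 0.19 between 16 and 4 weeks in naive mice, against 1.49 for Phxr4.

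**Figure D2:**
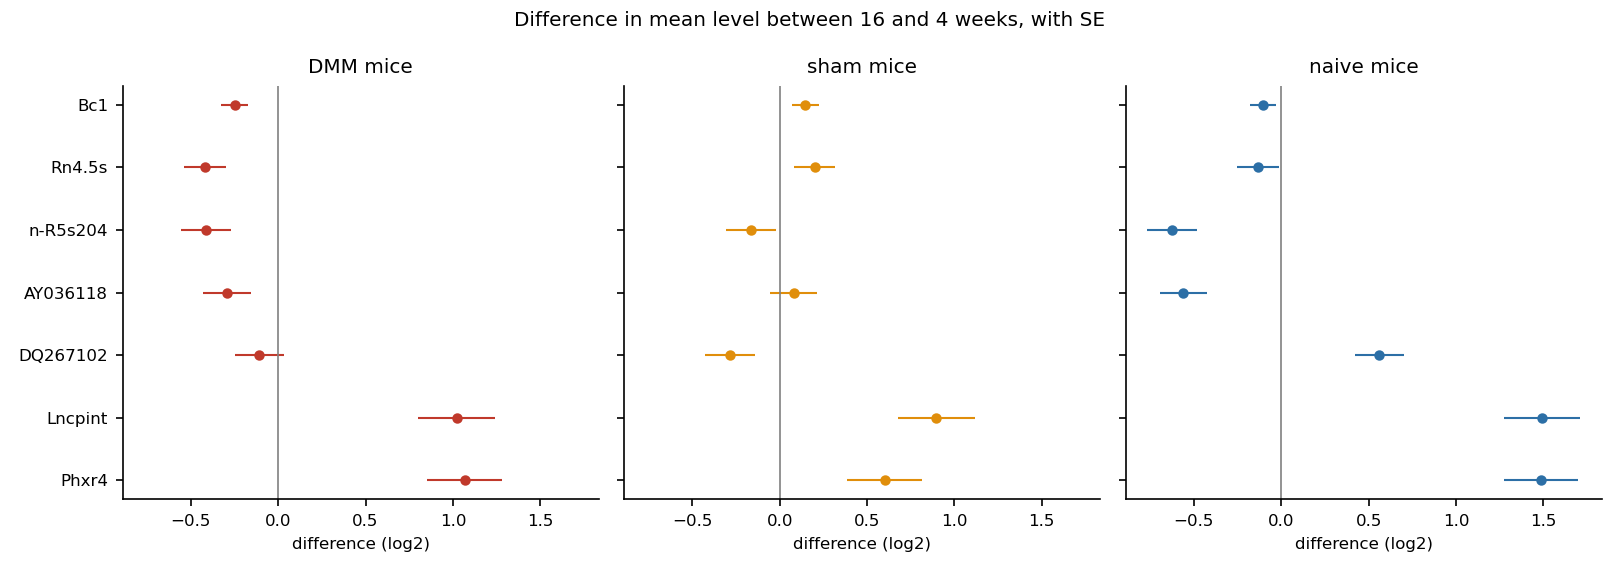
Difference in mean level (log2) between 16 and 4 weeks for each transcript in DMM, sham and naive mice, as points with their SE as bars. Lncpint lies at 1.02, 0.90 and 1.49 in the 3 panels, and n-R5s204 at -0.41, -0.16 and -0.62.

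**Figure D3:**
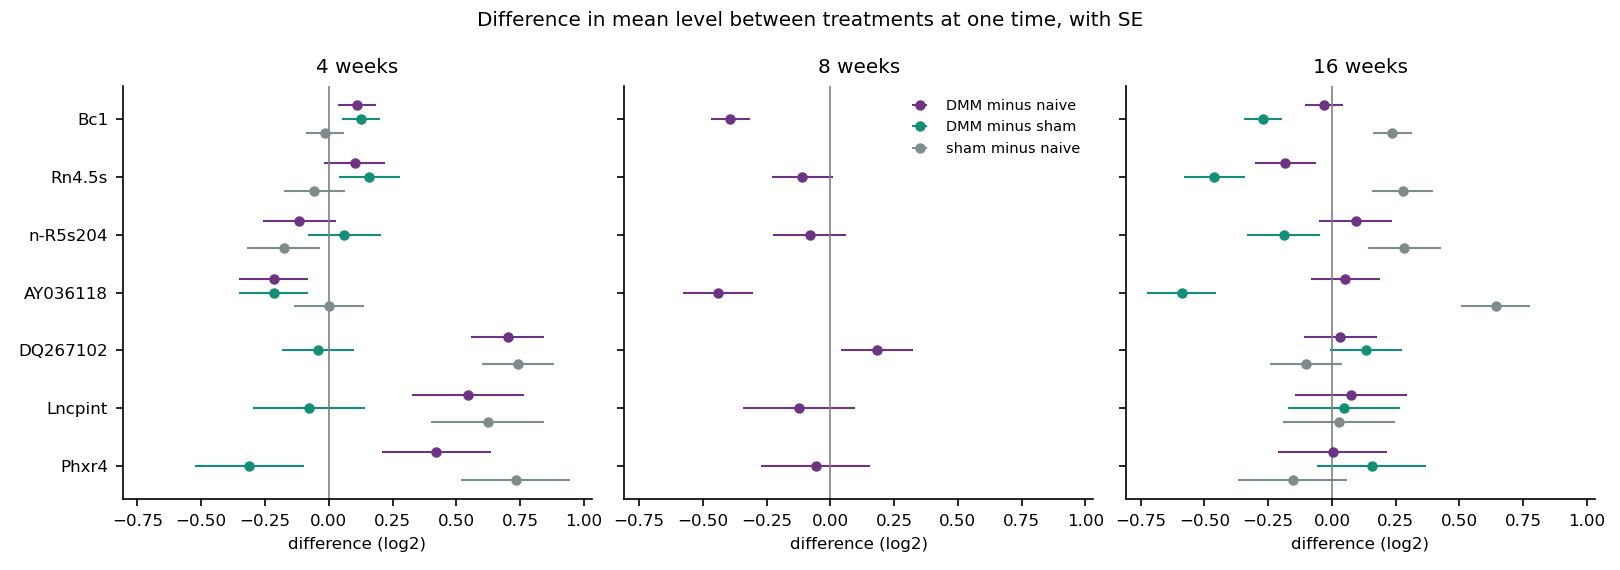
Difference in mean level (log2) between treatments at 4, 8 and 16 weeks, as points with their SE as bars. DQ267102, Lncpint and Phxr4 lie right of 0 at 4 weeks for both operated groups against naive mice, and AY036118 at 16 weeks lies at -0.59 for DMM minus sham and 0.64 for sham minus naive.

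The plots of differences by time and by treatment are read here against all 20260 genes, in limma's fit of 1 mean per group with p-values adjusted by Benjamini-Hochberg over those genes and a threshold of 0.05. The choice of the transcripts used these contrasts, so their counts are a description. Between 16 and 4 weeks, 2.87% of genes passed in DMM mice, 1.76% in sham mice and 18.8% in naive mice. Among the 7, Lncpint and Phxr4 passed in DMM, Lncpint alone in sham, and 5 in naive mice (n-R5s204, AY036118, DQ267102, Lncpint and Phxr4). The arrays of the 2 times did not overlap for 22.8% of genes in DMM mice, 25.9% in sham mice and 38.9% in naive mice, and for 5, 1 and 5 of the 7. The median size of a difference was 0.41 over the 7 and 0.10 over all genes in DMM mice, 0.20 and 0.10 in sham mice, and 0.56 and 0.14 in naive mice. Leaving out 1 array at a time kept all 5 naive calls in each of 6 fits (naive differences of 1.18 to 1.73 for Lncpint and 1.36 to 1.60 for Phxr4). In DMM mice Lncpint no longer passed without replicate 1 at 4 weeks or replicate 2 or 3 at 16 weeks, nor Phxr4 without replicate 1 at 4 weeks or replicate 2 at 16 weeks, with differences of 0.82 to 1.19 and 0.96 to 1.17 over the 6 fits. In sham mice the Lncpint call held without replicate 3 at 4 weeks and was lost without each of the other 5 arrays, with differences of 0.80 to 1.07. Phxr4 passed in sham mice without that same replicate 3 (0.96).

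Between DMM and naive mice limma called 0.00987% of genes at 4 weeks, 0.0494% at 8 weeks and 0.0148% at 16 weeks, and none of the 7 was among them. At 8 weeks Bc1 passed without replicate 1 of the DMM mice or replicate 3 of the naive mice. The arrays did not overlap for 16% of genes and 5 of the 7 at 4 weeks (Bc1, AY036118, DQ267102, Lncpint and Phxr4), 10.2% and 2 at 8 weeks (Bc1 and AY036118), and 12% and 0 at 16 weeks. Between DMM and sham mice limma called 0% of genes at 4 weeks, where 949 had an unadjusted p under 0.05, and 0.00494% at 16 weeks, again with none of the 7. There the arrays did not overlap for 11.6% of genes and 1 of the 7 (Bc1) at 4 weeks, and for 11% and 3 (Bc1, Rn4.5s and AY036118) at 16 weeks. Between sham and naive mice 0.331% of genes passed at 4 weeks, DQ267102 among them, and 0.00494% at 16 weeks (0.00987% with the replicate number as a block), with none of the 7. At 16 weeks AY036118 passed without replicate 3 of the naive mice or replicate 1 of the sham mice. The DQ267102 call was lost when any 1 of the 6 arrays was left out, with differences of 0.63 to 0.82. No overlap was found for 23.9% of genes and 2 of the 7 (DQ267102 and Lncpint) at 4 weeks, and for 17.6% and 4 (Bc1, Rn4.5s, n-R5s204 and AY036118) at 16 weeks. DMM minus naive, sham minus naive and the naive time difference all use the naive 4-week arrays.

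Bc1, Rn4.5s and n-R5s204 belong to a list of RNA polymerase III transcripts, of which 80 genes were tested and 46 have distinct values, because many 5S genes share their probes. In naive mice all 80 were lower at 16 than at 4 weeks (75 after cyclic loess normalization), 28 of them past the threshold, with a median difference of -0.45 against -0.07 over all genes. The 69 genes of 5S ribosomal RNA, n-R5s204 among them, had differences of -0.96 to -0.29, and 25 passed (19 with distinct values). Beyond 5S, Rny1 (-0.77) and Rny3 (-0.50), the Y RNAs bound by Ro60, and Rnu6 (-0.81), the U6 RNA of the spliceosome, passed as lower, whereas Bc1 (-0.11) and Rn4.5s (-0.13) did not pass. In DMM mice 3 of the 80 passed, all lower (Rnu6 -0.67, Rny1 -0.68, n-R5s12 -0.71; median -0.21), and in sham mice 0 did in limma (1 with an unadjusted p under 0.05, median -0.05). Over all genes 2.87% passed in DMM mice and 1.76% in sham mice. The naive count was 6 without replicate 3 and 12 without replicate 1 at 4 weeks. It was 7 without replicate 1 and 8 without replicate 2 at 16 weeks. At 16 weeks 79 of the 80 were lower in DMM than in sham mice (median -0.14) and 75 higher in sham than in naive mice (median 0.21), with 0 past limma's threshold in either comparison and an unadjusted p under 0.05 for 6 in DMM minus sham and 14 in sham minus naive. In sham minus naive at 16 weeks all 10 fibroblast and meningeal markers (median 0.42), all 10 macrophage markers (0.24) and all 7 myelinating Schwann cell markers (0.27) were higher too, 0 of them past limma's threshold and 0, 3 and 2 with an unadjusted p under 0.05. In DMM minus sham at 16 weeks 9 of the 10 macrophage markers (median 0.25) and 7 of the 10 fibroblast and meningeal markers (0.26) were higher and 6 of the 7 Schwann cell markers lower (-0.14), again with 0 past the threshold and 1, 0 and 1 with an unadjusted p under 0.05. Their part was not tested. Of 22 tested genes of the polymerase III machinery, 12 were lower and 10 higher in naive mice at 16 than at 4 weeks, and 5 passed the threshold (Crcp -0.53, Polr3g -0.26, Bdp1 -0.18, Polr3b 0.23, Polr3a 0.18), a share near the 18.8% of all genes.

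In naive mice DQ267102 was higher at 16 than at 4 weeks while most of its list was lower. Of 65 tested nucleolar and Cajal body small RNAs, 61 were lower at 16 than at 4 weeks, 34 of them past the threshold. The list median was -0.64. Among all 20260 genes 18.8% passed, 2579 of them as lower, and their median was -0.07. DQ267102, chosen on such differences, was the only one of this list past the threshold as higher. The list's largest difference, 1.94, was that of another gene and did not pass. In DMM and sham mice the largest were 2.05 and 1.23, also not past it, where DQ267102 gave -0.11 and -0.28. The list was drawn by symbol and leaves out snoRNA genes with other names. Of those in the imprinted region that holds DQ267102, Gm24564 (1.76), Gm25856 (0.89) and Gm22205 (0.84) also passed as higher. Snord69 (-1.62), Snord61 (-1.53) and Snord42a (-1.51), all of the C/D box class that guides ribose methylation, were among those past the threshold. All 15 genes on the list of small nuclear RNAs were lower, 8 of them past the threshold (median -0.70). That list was drawn mostly by symbols starting with Rnu. Among the 8 were Rnu3a (-1.11, the nucleolar RNA U3), Rnu1a1 (-0.78) and Rnu6, which is also on the polymerase III list. In DMM mice 64 of the 65 were lower, 19 past the threshold (median -0.56; Snord70 -1.57, Snord42a -1.39), as were 14 of the 15 small nuclear RNAs, 4 past the threshold (median -0.60), while 0 passed in sham mice (limma; 15 and 5 with an unadjusted p under 0.05, medians -0.18 and -0.36). Over all genes 2.87% passed in DMM mice and 1.76% in sham mice. The DMM count of 19 was 2 without replicate 1 and 8 without replicate 3 at 4 weeks. It was 7 without replicate 2 and 11 without replicate 3 at 16 weeks. The naive count of 8 small nuclear RNAs was 5 without replicate 3 at 4 weeks.

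Lncpint and AY036118 were also set beside other noncoding RNAs and p53 targets, and Bc1 and Rn4.5s beside known binding proteins. Of 17 tested long noncoding RNAs, 7 were higher and 10 lower at 16 than at 4 weeks in naive mice, with a list median of -0.05. Of these, 4 passed the threshold as higher (Lncpint 1.49, Snhg11 0.71, Miat 0.53 and Ftx 0.26) and Snhg5 (-0.22) as lower. Lncpint alone passed in DMM mice, and Lncpint and Snhg11 (0.63) in sham mice. Lncpint was chosen on such differences, so its place among those that passed is a description. Of 18 tested p53 targets, 4 passed in naive mice, all lower (Gadd45a -0.62, Ccng1 -0.58, Cdkn1a -0.56, Phlda3 -0.22), a share near the 18.8% of all genes, and 0 in DMM mice (limma; 4 with an unadjusted p under 0.05). AY036118 (-0.56) and Rn28s1 (-0.03), the ribosomal RNA gene for the large subunit, were the 2 tested of 5 entries for the ribosomal RNA precursor. Proteins known to bind Bc1 or 4.5S RNA had 8 of 9 lower in naive mice at 16 than at 4 weeks, 4 of them past the threshold, Syncrip (-0.39), Purb (-0.35), Ssb (-0.32, the La protein) and Eif4a1 (-0.29). Over all 20260 genes 18.8% passed in that comparison, 2579 genes as lower, and the median was -0.07. Macrophage markers moved with these naive differences: 7 of 10 passed as lower (C1qb -1.22, Lyz2 -1.03; median -0.65), and all 10 fibroblast and meningeal markers were lower with 0 past limma's threshold and 0 with an unadjusted p under 0.05 (median -0.49). All 7 satellite glia markers were lower, 1 past the threshold (Fabp7 -0.66), and 5 of 7 myelinating Schwann cell markers were lower, 1 past the threshold (Pmp2 -1.91). Of 16 sensory neuron markers 10 were higher and 6 lower, with 3 past the threshold as higher (Th 1.45, Mrgprd 0.47, Rbfox3 0.28) and 1 as lower (Prph -0.21). Their part in the noncoding RNA differences was not tested. Among 340 tested microRNA genes 223 were higher and 117 lower (median 0.19), and 59 and 14 of these passed the threshold. Over both directions that is a share near the 18.8% of all genes. By direction most passed as higher, whereas of all genes 1232 passed as higher and 2579 as lower.

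**Figure D4:**
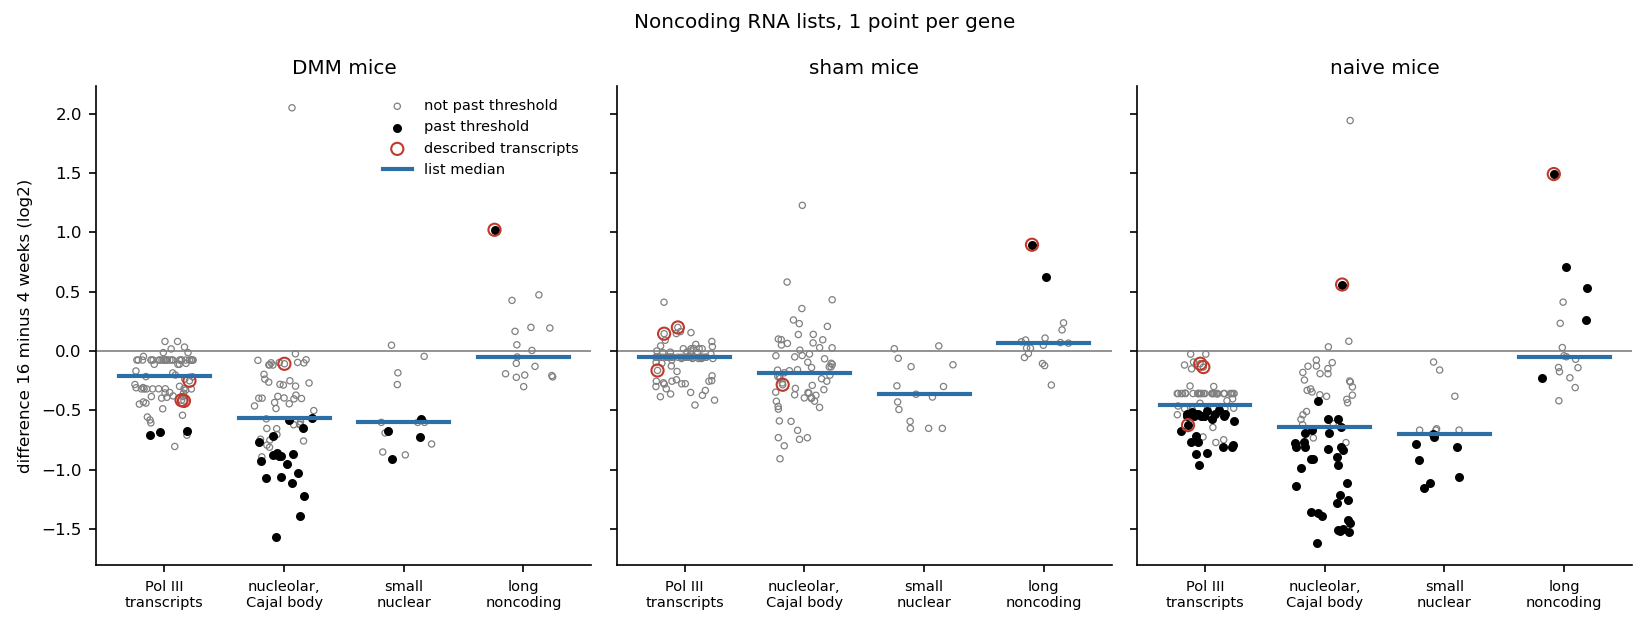
Difference in level (log2) between 16 and 4 weeks for each gene of 4 noncoding RNA lists, in DMM, sham and naive mice. Filled points passed limma's threshold, red rings are the described transcripts that belong to a list, and blue lines are list medians, which for nucleolar and Cajal body RNAs were -0.56, -0.18 and -0.64.

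The transcripts were related to the control probe sets by the contrast between the median of 1324 positive and the median of 5222 negative controls on each array, which ran from 5.75 to 6.08. Its group means were 5.96, 5.88 and 5.83 in DMM mice, 6.00, 5.82 and 5.92 in sham mice, and 6.05, 5.87 and 5.91 in naive mice at 4, 8 and 16 weeks. The contrast was thus highest at 4 weeks in each treatment, where the mean levels of Lncpint and Phxr4 were lowest. Within groups, where no difference of time or treatment enters, Lncpint had a slope of -2.54 ± 0.45 per unit of the contrast (95% interval -3.48 to -1.60; limma, adjusted p = 0.111 over all genes). Phxr4 had a slope of -1.89 ± 0.57 (limma, adjusted p = 0.328). For the other 5 the slopes were -0.21 ± 0.25 (Bc1), 0.36 ± 0.40 (Rn4.5s), 0.04 ± 0.48 (n-R5s204), 0.46 ± 0.45 (AY036118) and 0.01 ± 0.48 (DQ267102), with adjusted p from 0.792 to 0.996 in limma. No gene passed the threshold for this slope in limma (0%), although an unadjusted p under 0.05 was found for 1895. A slope larger in size than that of Lncpint was found for 0.217% of genes and than that of Phxr4 for 0.701%. Lncpint had an adjusted p of 0.0179 without replicate 2 (slope -2.61) and 0.038 without replicate 3 (slope -2.94) of the DMM mice at 4 weeks. With the contrast as a covariate the Lncpint difference of 16 minus 4 weeks was 0.70 in DMM and 1.15 in naive mice. Whether the control signal, or what sets it, has a part in the Lncpint differences was not tested further.

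**Figure D5:**
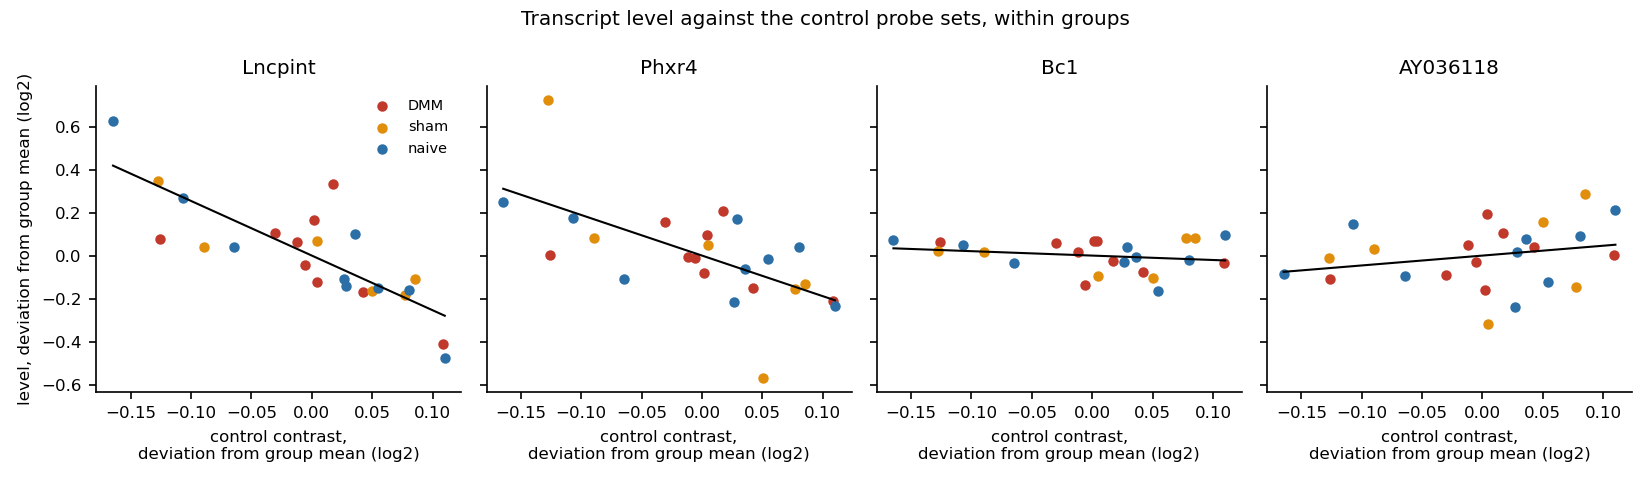
Deviation of the level from its group mean (log2) against that of the control contrast (log2) for Lncpint, Phxr4, Bc1 and AY036118, 1 point for each of 24 arrays, coloured by treatment, with the fitted slope as a line. The slopes are -2.54, -1.89, -0.21 and 0.46.

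Across arrays Lncpint and Phxr4 had the highest likeness of any pair of the 7, with Pearson's r of 0.92 over 25 arrays and 0.65 over 24 arrays after group means were subtracted. AY036118 had r of 0.64 with Bc1, 0.63 with Rn4.5s and 0.52 with n-R5s204, and 0.26, 0.46 and 0.47 within groups. The points of these correlations share array, labelling and normalization, and they are given as descriptions. Over 25 arrays the genes most like Lncpint were the snoRNA Gm24564 (0.95), Snhg11 (0.94) and 1700071K01Rik (0.94), and within groups Miat (0.89) and Mir341 (0.88) came first. Gm24564 was also most like Phxr4 (0.91), followed by Kmt2e (0.89) and Adam4 (0.88). The nearest genes to AY036118 were the small nuclear RNAs Gm22421 (0.84), Gm25199 (0.81) and Gm24448 (0.81), and to Bc1 the snoRNA Gm25194 (0.84). For n-R5s204 they were 3 further 5S genes that share 1 set of values (0.92), for DQ267102 Vps13c (0.79), Carmil1 (0.78) and Mycbp2 (0.76), and for Rn4.5s Gm23421 (0.74), Gm5776 (0.69) and Elob (0.67).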

How the data were processed

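The deposited values are log2 intensities of 72685 probe sets on 25 biotin-labelled arrays (labels). Their base is unstated and was inferred from a range of 2.23 to 19.70 and array medians of 4.88 to 4.97. What normalization, summary method, software and build the authors used is not given in the sources used here. Groups follow the labels. Symbols came from the platform annotation, updated by Entrez identifier for 827. Of 65956 transcript probe sets, 30604 carried 1 symbol, 2146 several and 33206 none. Genes with several probe sets (355) used the brightest by mean. Genes were kept when that mean was above the 40th percentile of transcript probe sets (4.52).

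limma 3.58.1 (R 4.3.3) fitted 1 mean per group with 16 residual degrees of freedom and a constant prior, and Benjamini-Hochberg adjustment ran over the 20260 genes, two-sided. The slope fit added the control contrast (15 residual degrees of freedom). The single 8-week sham array took its spread from the other groups and entered no comparison of its own. Precision is limited by the number of arrays, with a median residual SD of 0.121.

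The transcripts and gene lists were chosen with earlier results of these data known. By rule the text names the 7 transcripts, the 3 genes most like each, and up to 4 genes of each list, from those past the threshold. Genes that neighbour a transcript, and further names where 5 or fewer passed, were chosen after their values were seen. Lists covered RNA polymerase III machinery, small and long noncoding RNAs, p53 targets, binding proteins and cell type markers. The scripts were tested on simulated data. Alternatives were no brightness filter, cyclic loess normalization, only the arrays compared, the control contrast as a covariate, the replicate number as a block, the mean of all probe sets, each control alone, and leaving out each array. Same-numbered arrays of 30 pairs had deviations from group means that correlated at -0.359 to 0.318, 8 of them over 0.1. In the comparison of sham with naive mice at 16 weeks all 3 pairs were over 0.1 (0.108, 0.224 and 0.308). The share called with the replicate number as a block is therefore given beside that result. The labels state no pairing. Unless a setting is named, differences and SEs come from the fit without a block, and the block was an alternative in every comparison.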

Additional observations from a re-analysis of the deposited data

Results flagged for a closer look

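Bc1 gave differences of opposite direction at different times, with no overlap between the arrays of the groups at either time. DMM minus naive was 0.1114 at 4 weeks and -0.392 at 8 weeks. DMM minus sham was 0.127 at 4 weeks and -0.2695 at 16 weeks. The SE of each was 0.08. For DMM minus naive the arrays did not overlap for 16% of all genes at 4 weeks and 10.2% at 8 weeks. For DMM minus sham the shares were 11.6% at 4 weeks and 11% at 16 weeks. Whether the times differ was not tested, because Bc1 was chosen on these contrasts. On the Bc1 probe sets of chromosomes 10 and X the 4-week values were 0.04 and 0.01 for DMM minus naive and 0.03 and 0.08 for DMM minus sham, each with overlap. The 8-week values for DMM minus naive were -0.285 and -0.36. The 16-week values for DMM minus sham were -0.12 and -0.12, with overlap on the probe set of X.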

How the results depend on the processing

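Of 770 recomputed differences of the 7 transcripts, 747 moved by less than the spread between replicates, 23 moved by more, and 0 of the called values changed sign. Of 203 recomputed slopes, 201 stayed on their side of the threshold. Lncpint crossed it without replicate 2 (-2.61, adjusted p = 0.0179 in limma) or replicate 3 (-2.94, 0.038) of the DMM mice at 4 weeks, within a range of -2.94 to -2.01 (adjusted p 0.0179 to 0.342) over arrays left out. After cyclic loess Bc1 gave -0.28 for DMM minus naive at 8 weeks, -0.17 for DMM minus sham at 16 weeks, 0.08 for sham minus naive at 16 weeks, and 0.04 for 16 minus 4 weeks in naive mice (-0.11 as deposited) and in sham mice. The cause was not tested.

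The share of genes past the threshold depended more on the setting, and the cause was not tested beyond the fewer arrays or more genes that a setting has by construction. With only the arrays compared, 0% were called for DMM minus naive at 4, 8 and 16 weeks, DMM minus sham at 16 weeks, sham minus naive at 4 and 16 weeks and sham 16 minus 4 weeks, and 0.0197% for DMM 16 minus 4 weeks. Cyclic loess gave 0.0247% for DMM minus naive at 8 weeks, 0.563% for sham minus naive at 4 weeks and 3.03% for sham 16 minus 4 weeks. Without the filter these were 0.0166%, 0.00995% and 0.634%, and DMM 16 minus 4 weeks had 1.21%. With the control contrast as a covariate sham minus naive at 4 weeks had 0.0494%, and 16 minus 4 weeks 0.75% in DMM mice, 0.809% in sham mice and 12.4% in naive mice. The slope on the positive control alone had 0.0346%.

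Leaving out single arrays gave 0.00987% to 0.0197% for DMM minus naive at 4 weeks, 0.0197% to 0.592% at 8 weeks and 0.00494% to 1.6% at 16 weeks. It gave 0% to 0.00987% and 0% to 0.0543% for DMM minus sham at 4 and 16 weeks, 0% to 0.0543% and 0% to 0.375% for sham minus naive, and 0% to 0.079% for the slope. For 16 minus 4 weeks the range was 0.0444% to 3.81% in DMM mice (lowest without replicate 1 at 4 weeks), 0.0346% to 1.32% in sham mice (lowest without replicate 2 at 16 weeks) and 10.7% to 15.2% in naive mice (lowest without replicate 1 at 16 weeks, 11.3% without replicate 3 at 4 weeks). In naive mice the list of RNA polymerase III transcripts had 8 past the threshold with the covariate, 17 after cyclic loess and 62 with only the arrays compared. In DMM mice that list had 6 with the replicate block, and the nucleolar list had 6 with the covariate and 0 with only the arrays compared.

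With the replicate block limma called 0.0247% of genes for sham minus naive at 4 weeks, 0.00987% at 16 weeks and 1.01% for sham 16 minus 4 weeks. Bc1 passed with the block for DMM minus naive at 8 weeks and for DMM 16 minus 4 weeks, while Lncpint for sham 16 minus 4 weeks and DQ267102 for sham minus naive at 4 weeks did not. It changed no other call of the 7. With only the arrays compared, Lncpint and Phxr4 did not pass for DMM 16 minus 4 weeks, nor Lncpint for sham 16 minus 4 weeks, nor DQ267102 for sham minus naive at 4 weeks. Without the filter the Lncpint call in sham mice and the DQ267102 call were absent, and with the covariate that of DQ267102 was.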

Other observations

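The region from Dlk1 to Dio3 on chromosome 12, an imprinted cluster of microRNA and snoRNA genes that holds DQ267102 and its host Rian, was looked at after its values were seen. Of 45 tested genes there, 20 were past limma's threshold as higher at 16 than at 4 weeks in naive mice and 0 as lower, with a median difference of 0.44, against 1232 higher of 20260 genes in all and an overall median of -0.07. Among its 32 microRNA genes 16 passed as higher (median 0.55), and among 308 microRNA genes elsewhere 43 passed as higher and 14 as lower (median 0.16). Mir493 (1.93), Mir329 (1.34), Mir495 (1.20) and Mir341 (1.12) differed most among the 32 microRNA genes of the region. Besides DQ267102 (0.56), the snoRNA genes Gm24564 (1.76), Gm25856 (0.89) and Gm22205 (0.84) passed. The protein-coding gene Dlk1 differed by 0.06. In sham mice 2 of the 45 passed as higher (median 0.38) and in DMM mice 0 did in limma (median 0.28). Sham minus naive at 4 weeks called DQ267102 alone (median 0.14), and it shares the naive 4-week arrays with the naive time difference. The count of 20 was 11 without replicate 1 of the naive mice at 16 weeks, 12 without replicate 3 and 14 without replicate 2 at 4 weeks, and 12 with the control contrast as a covariate.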
